A study of Mus musculus with 6 samples.

Results

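The genes described here are the nuclear-encoded subunits of the mitochondrial respiratory chain and of ATP synthase, picked by gene name from a deposited table of gastrocnemius, the large calf muscle, in which fast fibres prevail. They make up 93 of the 55995 rows: 43 named as complex I, 4 as complex II, 9 as complex III, 19 as complex IV and 18 as complex V. The complex was read from the name, so Ndufa4, whose protein is now placed with complex IV, and its relative Ndufa4l2 are counted with complex I, and Cox7a2l, a factor that joins complexes III and IV into supercomplexes, with complex IV. Of these 93 rows, 6 were listed at 0 in every library, namely Ndufa11b, Ndufb11b, Cox6c2, Cox7b2, Cox8c and a second row named Atp5o. The other 87 had a mean of at least 1 TPM and were tested.

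RNA-seq was made from muscle of NSG (NOD/SCID/IL2Rγ-null) mice, which lack mature T, B and NK cells but still have neutrophils and macrophages. All mice carried a tumour of wild-type MDA-MB-231 cells, a line from human breast cancer, injected with Matrigel under the skin of the left flank. In the radiotherapy group the tumour, at about 800 mm3, received a single local dose of 10 Gy (6 MV X-rays at 6 Gy per minute), and the gastrocnemius of the other side, outside the tumour, was collected 3 days after that. Tumours of the control group were not irradiated, and their volume and the day of collection are not given in the sources used here. Each group held 3 libraries, and the labels do not tie them to separate mice. Each p-value here is therefore set against the spread between these samples alone, and that spread may be technical.

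The respiratory chain passes electrons from NADH (complex I) and succinate (complex II) through ubiquinone to complex III, then through cytochrome c to complex IV, which reduces oxygen. Complexes I, III and IV pump protons out of the matrix, and complex V, ATP synthase, uses their return to make ATP. Most subunits are encoded in the nucleus, a smaller set in mitochondrial DNA, and several nuclear subunits exist as a heart and skeletal muscle isoform beside one used by most tissues.

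No subunit gene passed an adjusted p of 0.05 in limma in either direction when all 6 libraries were used. Over all 11938 tested genes, 5 passed as higher (0.0419%) and 2 as lower (0.0168%) after radiotherapy. At an unadjusted p under 0.05, 6 of the 87 subunit genes were lower and 0 were higher, beside 13.3% lower and 1.18% higher over all tested genes; these 6 were Cox6b2, Sdha, Atp5l, Uqcrfs1, Atp5a1 and Cox5a. In 20 subunit genes (23.0%) every radiotherapy library lay below every control library, against a background of 19.3% of all tested genes. Ndufa4l2 was the 1 subunit gene (1.15%) with every radiotherapy library above every control library, where the background was 1.73%. Both shares lie near those of all tested genes.

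The median log2 change (radiotherapy minus control, on the log2(TPM + 1) scale) was -0.17 over the 87 subunit genes and -0.36 over all tested genes, and 63 subunit genes (72.4%) lay below 0, against 78.5% of all tested genes. TPM are shares of a fixed total, so a level is relative to the rest of the library. Most differences were small: 88.5% of the subunit genes differed by less than 0.5 on the log2 scale, against 56.6% of all tested genes. By complex, the median change was -0.13 for I, -0.41 for II, -0.17 for III, -0.29 for IV and -0.099 for V. With median-of-ratios scaling, which moves the median of all genes to 0.015, these medians became 0.34, 0.062, 0.30, 0.18 and 0.37, so the direction of each complex depends on the scaling. Of the 20 genes without overlap on the lower side, 12 stayed below 0 under each of 3 other scalings (median-of-ratios, rescaling without mt- genes, quantile): Sdha, Sdhd, Uqcrfs1, Uqcrc2, Cox5a, Cox6b2, Cox7a2l, Atp5a1, Atp5g1, Atp5l, Ndufb4 and Ndufv1. The other 8 (Atp5pb, Atp5d, Ndufs3, Ndufc2, Cox6a2, Cox4i1, Ndufa7 and Uqcr10) lay above 0 with median-of-ratios scaling. Of the 12, Ndufv1 (-0.003), Uqcrc2 (-0.006) and Atp5g1 (-0.012) were near 0 with that scaling. On the other side, 24 of the 87 subunit genes lay above 0 as deposited and under each of the 3 other scalings. The same counts were not made over all tested genes.

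**Figure D1:**
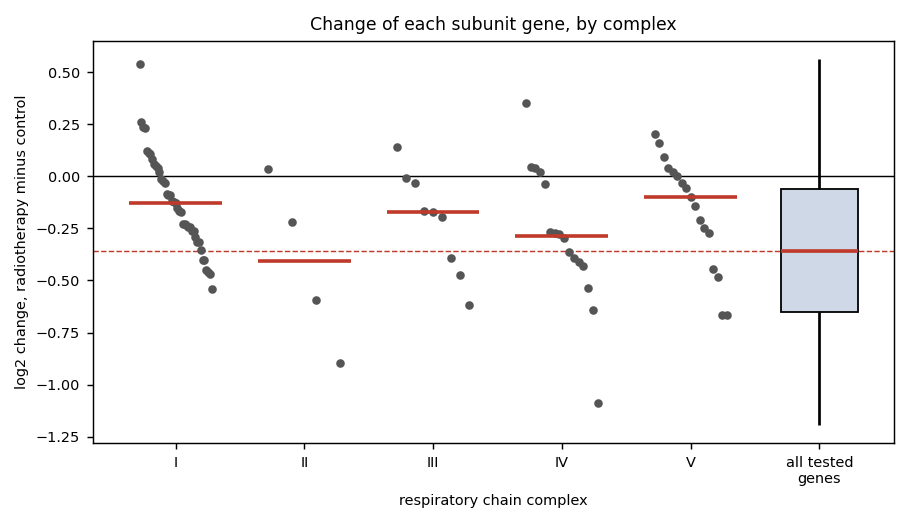
Log2 change (radiotherapy minus control, log2(TPM + 1) scale) of the 87 tested subunit genes, 1 point each, by complex on the x axis, with red bars at the medians; the box at the right spans the 25th to 75th percentile of all 11938 tested genes, its line the 5th to 95th, and the dashed line their median of -0.36. The medians of complexes I, III, IV and V lie above the dashed line and that of complex II (-0.41) just below it.

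Together the subunit genes took 5.80%, 5.55% and 4.11% of all TPM in the radiotherapy libraries, and 5.20%, 6.16% and 6.03% in the control libraries. Radiotherapy library 3 was the lowest of the 6, and the other two radiotherapy libraries lay within the control range. It held the lowest value of 65 of the 87 subunit genes (74.7%), while it held the lowest value of 14.9% of all tested genes. It lay below every control library in 71 subunit genes (81.6%; 30.9% of all tested genes). Under median-of-ratios scaling, rescaling without mt- genes and quantile normalisation it was the lowest library for 60, 70 and 80 subunit genes.

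**Figure D2:**
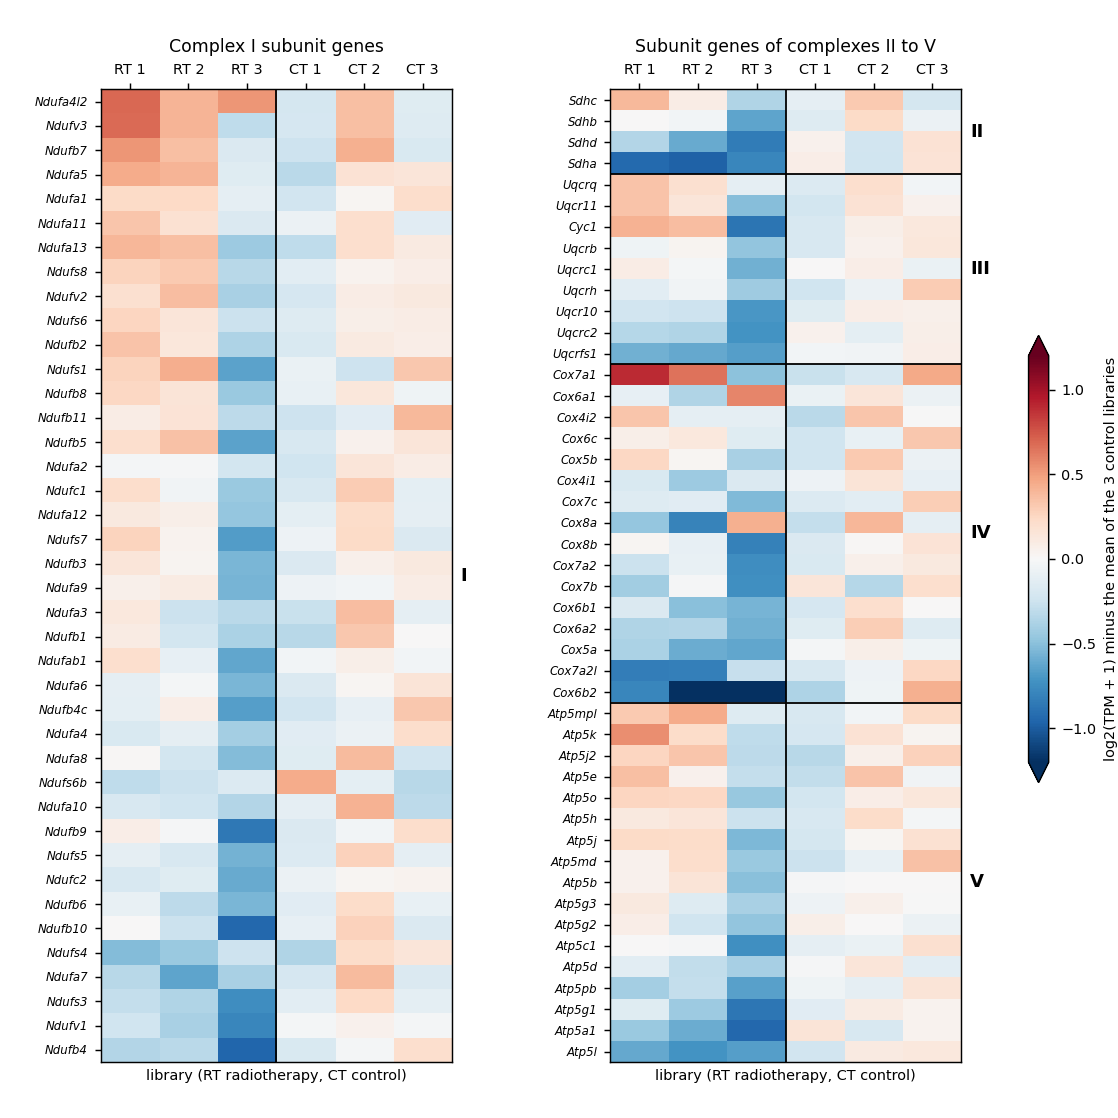
TPM of 86 of the 87 tested subunit genes in each library as log2(TPM + 1) minus the mean of the 3 control libraries (colour, limits at the ends of the scale), with radiotherapy (RT) left of control (CT), complex I in the left panel and complexes II to V in the right. The column of radiotherapy library 3 is blue for most genes, and Sdha, Uqcrfs1, Atp5l, Atp5a1 and Cox5a are blue in all 3 radiotherapy columns.

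The other two radiotherapy libraries were split. Both lay above every control library in 18 subunit genes (20.7%; 6.17% of all tested genes), among them Cyc1, Cox7a1, Atp5b, Atp5k, Ndufa5, Ndufa13, Ndufs8 and Ndufv2. Both lay below every control library in 24 (27.6%; 58.8% of all tested genes). Without radiotherapy library 3 the median over the subunit genes was -0.015, against -0.57 over all tested genes. The medians by complex were then 0.053 for I, -0.24 for II, -0.010 for III, -0.22 for IV and 0.11 for V.

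Without that library limma called 4 of the 87 subunit genes lower at an adjusted p under 0.05. Of all 11938 tested genes it called 3298 lower and 236 higher. Subunit genes were thus called lower less often than tested genes at large. The 4 subunit genes were Sdha (log2 change -0.95, limma adjusted p = 0.0223), Cox7a2l (-0.83, 0.0296), Uqcrfs1 (-0.60, 0.0374) and Atp5l (-0.67, 0.0458). Over all 15 alternatives the limma adjusted p ranged up to 0.756 for Sdha, 0.818 for Cox7a2l, 0.872 for Uqcrfs1 and 0.844 for Atp5l, and each stayed below 0.

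**Figure D3:**
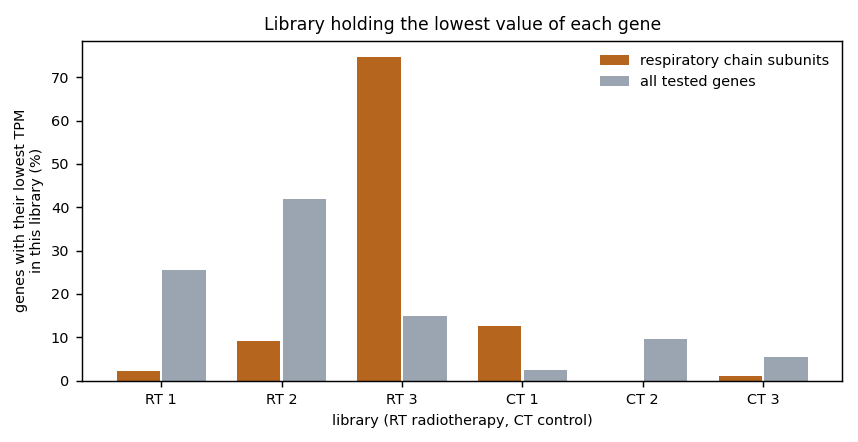
Share of genes (%) whose lowest TPM fell in each library, for the 87 subunit genes (brown) and all 11938 tested genes (grey), with radiotherapy (RT) libraries left of control (CT) libraries. Radiotherapy library 3 holds 74.7% of the subunit genes' lowest values and 14.9% of those of all tested genes.

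Radiotherapy library 3 also stood apart in cell type markers. Its 6 neutrophil markers (S100a8, S100a9, Retnlg, Csf3r, Ly6g and Mpo) summed to 2916 TPM, against 10.5 and 18.3 TPM in the other two radiotherapy libraries and 72.8 to 182 TPM in the control libraries. Ly6g, the surface marker used to define mouse neutrophils, stood at 2.23 TPM there, at 0 in the other two radiotherapy libraries and at 0.06 to 0.19 TPM in the control libraries. Its 6 myofibre markers, Myh4 and Ckm among them, summed to 71900 TPM, against 130200 and 138700 TPM in the other two radiotherapy libraries and 89260 to 94120 TPM in the control libraries, and none of the 6 was at 0 in any library. Slow fibre markers summed to 219 to 1869 TPM in the radiotherapy and 76.7 to 1281 TPM in the control libraries. Macrophage markers summed to 179.7 TPM in radiotherapy library 3. They summed to 38.8 and 56.8 TPM in radiotherapy libraries 1 and 2 and to 30.3 to 89.8 TPM in the control libraries. Most of the sum in library 3 was Cd68, at 121 TPM there and 4.84 to 14.8 TPM in the control libraries. Csf1r also lay above the control range there, at 5.96 TPM, while Adgre1, C1qa, C1qb and Mrc1 lay within it. Endothelial markers summed to 203 TPM in that library, against 112 and 90.4 TPM in radiotherapy libraries 1 and 2 and 122 to 136 TPM in controls. They did not move together: Egfl7, Cdh5 and Emcn lay above the control range in library 3 and Pecam1 within it. Kdr (2.20 TPM, controls 2.22 to 4.04 TPM) and Tek (1.88 TPM, controls 3.55 to 4.48 TPM) lay below it. Schwann cell markers summed to 8.62 TPM in library 3, against 115 and 141 TPM in radiotherapy libraries 1 and 2 and 15.7 to 102 TPM in controls. The sums of adipocyte, tendon fibroblast and erythroid markers in that library lay within the control range, and none of the 6 markers of any of these lists was at 0 in every library. Single markers left that range on both sides there, such as Fmod (0.32 TPM, controls 1.26 to 3.92 TPM) and Hba-a1 (405 TPM, controls 76.1 to 320 TPM). In radiotherapy libraries 1 and 2 the tendon fibroblast markers summed to 55.4 and 43.0 TPM, above the control range of 8.21 to 19.1 TPM. The part of these markers in the subunit values was not tested. In bulk muscle, fewer cells of a type and less RNA per cell cannot be told apart.

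Complex I takes electrons from NADH through its core subunits, of which 7 are nuclear. Ndufv1, which binds NADH and the flavin, had 119, 108 and 81.6 TPM in the radiotherapy libraries, against 139, 146 and 139 TPM in the control libraries. Ndufs3, a subunit of the arm that carries electrons to ubiquinone, had 317, 301 and 230.3 TPM after radiotherapy, against 355, 456 and 356 TPM in controls. Both lay lower in every radiotherapy library as deposited. The log2 changes were -0.47 (SE 0.26, limma adjusted p = 0.419) for Ndufv1 and -0.46 (SE 0.26, limma adjusted p = 0.425) for Ndufs3. With median-of-ratios scaling both lay near 0, Ndufv1 at -0.0027 and Ndufs3 at 0.0086.

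Ndufs1, the largest iron-sulfur subunit, had 91.0, 102 and 48.0 TPM in the radiotherapy libraries, against 71.5, 63.5 and 94.9 TPM in the control libraries. Ndufv2, Ndufs7 and Ndufs8, further iron-sulfur subunits, differed by 0.057, -0.12 and 0.081 on the log2 scale, and their groups overlapped. The groups of Ndufs1 overlapped as well, with its highest and its lowest value both in radiotherapy libraries.

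Among the accessory subunits of complex I, which surround the core and do not carry electrons, 3 more lay lower without overlap. Ndufb4, in the membrane arm, had 66.0, 67.6 and 43.4 TPM after radiotherapy, against 74.5, 83.1 and 97.8 TPM in controls. Ndufa7 had 476, 384 and 457 TPM in the radiotherapy libraries, against 519, 777 and 531 TPM in the control libraries, and Ndufc2 had 147, 151 and 110.0 TPM after radiotherapy, against 160.3, 171 and 173 TPM in controls. The values in radiotherapy library 2 were the lowest for Ndufa7 but not for the other two. Their log2 changes were -0.54, -0.45 and -0.31, and the smallest limma adjusted p was 0.410 (Ndufb4).

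The gene named Ndufa4 was the most abundant of the complex I set, at a mean of 1433 TPM over the 6 libraries, and its groups overlapped. Ndufa4l2, a relative of Ndufa4 that is known as a target of the hypoxia-inducible factor HIF-1, had 12.2, 9.88 and 10.9 TPM in the radiotherapy libraries, against 6.09, 9.53 and 6.45 TPM in the control libraries. All 3 radiotherapy values lay above the control values, by as little as 9.88 against 9.53 TPM, and the log2 change was 0.54 (SE 0.26, limma adjusted p = 0.382). It stayed above 0 under every scaling, and Ndufa4l2 made up 0.894%, 0.687% and 0.928% of the pair's summed TPM in radiotherapy libraries, against 0.434%, 0.643% and 0.361% in control libraries. The least abundant tested gene of complex I was Ndufs6b, at a mean of 4.54 TPM.

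Of the 41 tested complex I genes, 11 lay above every control library in both radiotherapy libraries 1 and 2, Ndufa4l2 among them. Over all tested genes 6.17% did so. Ndufa5, an accessory subunit of the matrix arm, had 755, 732 and 499 TPM after radiotherapy, against 443, 626 and 610.2 TPM in controls. Ndufa13, also known as GRIM-19, had 838, 818 and 471 TPM in the radiotherapy libraries, against 515, 731 and 684 TPM in the control libraries. Radiotherapy library 3 lay within the control range for Ndufa5 and below it for Ndufa13, so the groups overlapped in both. Complex I genes summed to 18572, 17761 and 12909.5 TPM in the radiotherapy libraries, against 15469, 19144 and 18073 TPM in the control libraries.

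Complex II, succinate dehydrogenase, is the one complex of the chain encoded wholly in the nucleus, and it links the tricarboxylic acid cycle to ubiquinone. Sdha, the flavoprotein that oxidises succinate, had 68.9, 67.3 and 77.0 TPM after radiotherapy, against 140.4, 112 and 149 TPM in controls. The groups stood apart: the highest radiotherapy value, 77.0 TPM, lay below the lowest control value, 112 TPM. The log2 change was -0.90 (SE 0.26, unadjusted p = 0.0100, limma adjusted p = 0.288), or -0.54 relative to the median of all tested genes. Sdha was also the 1 subunit gene that kept its groups apart on the lower side under median-of-ratios scaling, where its change was -0.43. Under that scaling 8.99% of all tested genes were lower without overlap. With quantile normalisation the groups of Sdha overlapped, at a change of -0.52.

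Of the other 3 subunits, 1 was also lower without overlap. Sdhd, 1 of the 2 membrane anchors that hold the ubiquinone site, had 121, 102 and 86.1 TPM in the radiotherapy libraries, against 160.3, 132 and 175 TPM in the control libraries. Its log2 change was -0.60 (SE 0.27, limma adjusted p = 0.360). Sdhb, the iron-sulfur subunit, had 411, 402 and 265 TPM after radiotherapy, against 368, 482 and 389.5 TPM in controls. Sdhc, the other anchor, had 152, 123 and 89.9 TPM in the radiotherapy libraries, against 108, 145 and 99.9 TPM in the control libraries, and overlapped like Sdhb. Within the complex, which needs no scaling between libraries, Sdha made up 9.15%, 9.70% and 14.9% of the summed TPM in the radiotherapy libraries, against 18.1%, 12.9% and 18.3% in the control libraries, so the share in radiotherapy library 3 lay within the control range.

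The sequence before the start site of Sdha is shown because the groups of Sdha stood apart as deposited and under median-of-ratios scaling, though not under quantile normalisation, and because this window held 3 matches to the letters bound by NRF1, nuclear respiratory factor 1. Uqcrfs1, a subunit of complex III that was also lower without overlap, is shown beside it because none of the 5 motifs searched was found in its window. The sequences are the 250 bases before the RefSeq start site (GRCm38.p6), both on the minus strand, at chr13:74350241-74350490 for Sdha and chr13:30545317-30545566 for Uqcrfs1, 5′ to 3′, with motif matches in capitals.
Sdha: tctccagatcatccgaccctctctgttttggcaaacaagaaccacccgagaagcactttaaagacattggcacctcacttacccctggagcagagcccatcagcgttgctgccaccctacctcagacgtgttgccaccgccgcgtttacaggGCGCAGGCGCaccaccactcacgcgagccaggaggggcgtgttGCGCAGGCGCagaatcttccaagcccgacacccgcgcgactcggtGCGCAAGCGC
Uqcrfs1: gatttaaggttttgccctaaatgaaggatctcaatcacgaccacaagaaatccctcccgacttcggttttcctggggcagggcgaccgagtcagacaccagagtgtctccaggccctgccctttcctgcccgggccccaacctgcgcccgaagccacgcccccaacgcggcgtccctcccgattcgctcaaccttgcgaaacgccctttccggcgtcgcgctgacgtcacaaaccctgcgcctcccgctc
The Sdha matches start 98, 55 and 10 bases before the start site, and no other motif searched was found in these 250 bases. A match is a description of letters and not a binding site.

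Across the 69 tested subunit genes with a RefSeq promoter (74 windows of 300 bases, 250 before to 50 after the start site), both strands were searched for 5 motifs. The NRF1 letters GCGCA, any base, then GCGC, were in 24.3% of these windows and in 4.60% of all 32851 windows. The ETS letters CCGGAAG, bound by GABP (NRF-2), were in 23.0% and 8.86%. The YY1 letters AAGATGGC were in 13.5% and 2.75%, and the ERR letters AAGGTCA, bound by estrogen-related receptors, in 10.8% and 4.72%. The E-box letters CAGCTG, a form bound by myogenic factors, were in 8.11% and 16.3%. Of the 20 genes lower without overlap, 16 had a promoter (18 windows). The NRF1, ETS and ERR letters were each in 3 of these windows (16.7%), the YY1 letters in 1 (5.56%) and the E-box letters in 0.

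Complex III passes electrons from ubiquinol to cytochrome c. Uqcrfs1, the Rieske iron-sulfur protein, had 199, 193 and 187 TPM after radiotherapy, against 289, 287 and 314 TPM in controls. The radiotherapy values lay close together, with a mean of 193 ± 5.91 TPM, against 297 ± 15.0 TPM in the control libraries (SD, n = 3 each). The log2 change was -0.62 (SE 0.23, unadjusted p = 0.0309, limma adjusted p = 0.332), and unlike most subunit genes Uqcrfs1 was nearly as high in radiotherapy library 3 as in the other two.

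Uqcrc2, a core protein that supports the complex, had 122, 121 and 94.4 TPM in the radiotherapy libraries, against 161, 143 and 164 TPM in the control libraries. Uqcr10, a small accessory subunit and the most abundant of complex III, had 1861, 1839 and 1348 TPM after radiotherapy, against 1982, 2307 and 2288 TPM in controls. Both were lower without overlap as deposited, with log2 changes of -0.47 (limma adjusted p = 0.407) for Uqcrc2 and -0.39 (limma adjusted p = 0.430) for Uqcr10. With median-of-ratios scaling Uqcrc2 was at -0.0063 and Uqcr10 at 0.077.

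Cytochrome c1, encoded by Cyc1, behaved otherwise. Cyc1 had 389, 378 and 159 TPM in the radiotherapy libraries, against 255, 306 and 319 TPM in the control libraries. Radiotherapy libraries 1 and 2 lay above every control library and radiotherapy library 3 far below them all, so the mean change of -0.031 describes no single library. Uqcrc1, Uqcrb, Uqcrh, Uqcrq and Uqcr11 overlapped, with log2 changes from -0.20 to 0.14.

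Complex IV, cytochrome c oxidase, has its catalytic centres in mitochondrially encoded subunits, and the nuclear ones stabilise and regulate it. Cox5a, one of the first nuclear subunits to join the complex, had 531, 457 and 448 TPM after radiotherapy, against 682, 728 and 667 TPM in controls. Its log2 change was -0.53 (SE 0.22, unadjusted p = 0.0483, limma adjusted p = 0.343), with groups well apart as deposited, although it was only -0.063 with median-of-ratios scaling. Cox4i1, the largest nuclear subunit, had 1467, 1234 and 1478 TPM in the radiotherapy libraries, against 1604, 1864 and 1559.8 TPM in the control libraries. Here the gap was narrow, the log2 change was -0.27, and the sign turned to 0.20 with median-of-ratios scaling. Cox5b, which binds zinc, had 1144, 978 and 734 TPM after radiotherapy, against 813, 1194 and 916 TPM in controls and overlapped.

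Cox7a2l, the supercomplex factor, had 60.3, 60.5 and 89.1 TPM in the radiotherapy libraries, against 94.5, 104 and 128 TPM in the control libraries. Its radiotherapy libraries 1 and 2 stood well below the control range, with library 3 nearer to it, and the log2 change was -0.64 (SE 0.29, limma adjusted p = 0.358). Cox6b2, an isoform known from testis, had 2.33, 1.36 and 1.49 TPM after radiotherapy, against 3.42, 4.51 and 6.71 TPM in controls. These levels are low, and the log2 change of -1.09 (SE 0.30, unadjusted p = 0.00864, limma adjusted p = 0.283) was the largest in size among the subunit genes on the values as deposited.

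Muscle isoforms made up most of the summed TPM of the Cox6a, Cox7a and Cox8 families of complex IV, whereas Cox4i1 and Cox6b1, the forms of most tissues, made up 99.6% to 99.9% of theirs in every library. Cox6a2, the heart and skeletal muscle form of subunit VIa and the most abundant gene of the complex, had 3278, 3301 and 2828 TPM in the radiotherapy libraries, against 3823, 5178 and 3791 TPM in the control libraries. It was lower without overlap as deposited and at 0.040 on the log2 scale with median-of-ratios scaling. Its ubiquitous partner Cox6a1 had 97.5, 80.8 and 157 TPM after radiotherapy, against 98.4, 116 and 99.4 TPM in controls, so radiotherapy library 3 was the highest of all 6. Cox8b, the muscle form of subunit VIII in rodents, had 3070.1, 2832 and 1731 TPM in the radiotherapy libraries, against 2687, 3048 and 3388 TPM in the control libraries, and its partner Cox8a had 95.5, 75.2 and 178 TPM after radiotherapy, against 108, 174 and 122 TPM in controls.

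Shares within a family do not depend on the scaling between libraries. Cox6a1 made up 2.89%, 2.39% and 5.25% of Cox6a1 and Cox6a2 in the radiotherapy libraries, against 2.51%, 2.18% and 2.56% in the control libraries. Cox8a made up 3.02%, 2.59% and 9.32% of Cox8a and Cox8b in the radiotherapy libraries, against 3.86%, 5.40% and 3.48% in the control libraries. In both of these families radiotherapy library 3 had the largest share of the ubiquitous form, but in the Cox7a family the ubiquitous Cox7a2 stood at 34.9% in that library, within the control range of 33.5% to 43.2%. Cox6b2 made up 0.165%, 0.121% and 0.137% of Cox6b1 and Cox6b2 in the radiotherapy libraries, against 0.247%, 0.246% and 0.419% in the control libraries, and these shares did not overlap.

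The Cox7a pair was the family in which the muscle form varied most. Cox7a1, the heart and skeletal muscle form of subunit VIIa, had 1008, 849.9 and 383 TPM in the radiotherapy libraries, against 449.6, 474 and 740.1 TPM in the control libraries. Cox7a2, the form of most tissues, had 287, 325 and 206 TPM after radiotherapy, against 304, 361 and 374 TPM in controls. Cox7a1 therefore made up 77.8%, 72.3% and 65.1% of the pair in the radiotherapy libraries, against 59.6%, 56.8% and 66.5% in the control libraries. The 3 radiotherapy shares averaged 71.7 ± 6.39% and the control shares 61.0 ± 4.98% (SD, n = 3 each), and the groups overlapped at radiotherapy library 3 and control library 3. For Cox7a1 alone the log2 change was 0.35 (SE 0.42, limma adjusted p = 0.676), and 0.78 (limma adjusted p = 0.0745) without radiotherapy library 3, while the alternatives gave limma adjusted p from 0.0745 to 0.969.

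**Figure D4:**
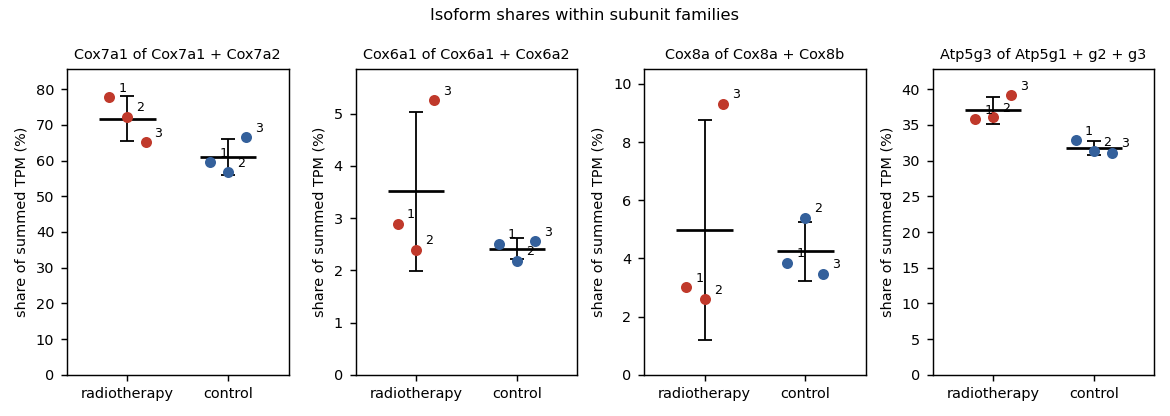
Share (%) of 1 isoform in the summed TPM of its family in each library (numbered points), with radiotherapy in red left of control in blue, and the mean and SD of 3 libraries as line and bar. Cox7a1 lies at 65.1% to 77.8% in radiotherapy and 56.8% to 66.5% in control libraries, and of the 4 families shown (Cox7a, Cox6a, Cox8 and the c subunit of ATP synthase) that of Atp5g3 is the 1 whose groups do not overlap.

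The promoters of this pair are printed because Cox7a1 lay above the control range in radiotherapy libraries 1 and 2 while Cox7a2 lay within or below it. They are the 250 bases before the RefSeq start site (GRCm38.p6), at chr7:30183921-30184170 on the plus strand for Cox7a1 and chr9:79759854-79760103 on the minus strand for Cox7a2, 5′ to 3′. Neither holds any of the 5 motifs, so no letters are in capitals.
Cox7a1: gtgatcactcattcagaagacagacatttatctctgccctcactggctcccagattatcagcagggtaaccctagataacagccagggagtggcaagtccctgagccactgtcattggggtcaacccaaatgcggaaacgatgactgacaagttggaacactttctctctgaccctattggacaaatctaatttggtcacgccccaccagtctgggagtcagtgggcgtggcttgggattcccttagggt
Cox7a2: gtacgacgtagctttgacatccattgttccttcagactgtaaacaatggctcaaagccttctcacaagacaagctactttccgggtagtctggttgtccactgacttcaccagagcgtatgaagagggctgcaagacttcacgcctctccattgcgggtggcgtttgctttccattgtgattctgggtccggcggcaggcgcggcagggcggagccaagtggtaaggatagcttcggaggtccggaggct
No match says only that these letters are not in these windows.

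The remaining complex IV genes overlapped between the groups. Cox4i2, an isoform known from lung and from hypoxia, was the least abundant tested, at a mean of 1.80 TPM. Cox6b1, Cox7b, Cox7c and Cox6c had log2 changes of -0.41, -0.39, -0.27 and 0.019.

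In complex V the catalytic head is built of alpha and beta subunits around a central stalk. Atp5a1, the alpha subunit, had 572, 515 and 405 TPM in the radiotherapy libraries, against 869.7, 681 and 802 TPM in the control libraries. Atp5b, the catalytic beta subunit and the most abundant gene of the complex, had 2551, 2730.0 and 1727 TPM after radiotherapy, against 2435, 2463 and 2462 TPM in controls. The pair thus differed: Atp5a1 was lower in every radiotherapy library (log2 change -0.66, SE 0.25, unadjusted p = 0.0337, limma adjusted p = 0.332), whereas Atp5b was above every control library in radiotherapy libraries 1 and 2 and below them in library 3. Within the complex, Atp5a1 took 3.74%, 3.49% and 3.87% of the summed TPM in the radiotherapy libraries, against 6.41%, 4.43% and 5.05% in the control libraries, and Atp5b took 16.7%, 18.5% and 16.5% in the radiotherapy libraries, against 17.9%, 16.0% and 15.5% in the control libraries.

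The central stalk gave 1 gene without overlap. Atp5d, its delta subunit, had 684, 610.3 and 569 TPM in the radiotherapy libraries, against 739, 826 and 686 TPM in the control libraries. The gap between 684 and 686 TPM is smaller than the spread of either group, the log2 change was -0.27, and with median-of-ratios scaling it was 0.20. Atp5c1 and Atp5e, the gamma and epsilon subunits, overlapped, at -0.25 and 0.042.

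Subunits of the membrane part and the peripheral stalk were among the lower genes as well. Atp5l, subunit g, which helps ATP synthase form dimers, had 1006, 935 and 976 TPM after radiotherapy, against 1313, 1660.4 and 1679 TPM in controls. Its log2 change was -0.66 (SE 0.22, unadjusted p = 0.0189, limma adjusted p = 0.306), and its values barely differed among the 3 radiotherapy libraries. Atp5pb, subunit b of the peripheral stalk, had 336, 365 and 284 TPM in the radiotherapy libraries, against 429.9, 414 and 495 TPM in the control libraries. It lay lower without overlap as deposited, with a log2 change of -0.45 (limma adjusted p = 0.411), and at 0.025 with median-of-ratios scaling. Atp5k, subunit e, which partners subunit g, had 1672, 1328 and 922 TPM after radiotherapy, against 988, 1280.0 and 1164 TPM in controls and overlapped.

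The c ring is built of identical proteins made from 3 genes. Atp5g1 had 1309, 1071 and 795 TPM in the radiotherapy libraries, against 1321, 1548 and 1489 TPM in the control libraries. Atp5g3 had 742, 612 and 521 TPM after radiotherapy, against 656, 713 and 679 TPM in controls. Atp5g2 stood at 12.1 to 18.3 TPM in the radiotherapy libraries and 16.3 to 18.1 TPM in the control libraries, the lowest of the tested genes of complex V. Atp5g1 made up 63.3%, 63.1% and 59.9% of the 3 genes in the radiotherapy libraries, against 66.2%, 68.0% and 68.2% in the control libraries. Atp5g3 made up 35.8%, 36.1% and 39.2% in the radiotherapy libraries, against 32.9%, 31.3% and 31.1% in the control libraries. These shares did not overlap between the groups, and they are free of the scaling, although an exact permutation test of 3 against 3 cannot go below 0.1.

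A chosen set of subunits, called core here although it includes supporting ones of complexes III and IV, was counted apart from the others. Of 23 core subunits (the nuclear core of complex I, all of II, Cyc1 with Uqcrc1, Uqcrc2 and Uqcrfs1, Cox4i1 with Cox5a and Cox5b, and the alpha to epsilon subunits of V), 10 were lower without overlap (43.5%), with a median log2 change of -0.25. Of the 64 others, 10 were lower without overlap (15.6%), with a median of -0.16; the share over all tested genes was 19.3%. This difference was not kept under other scalings. With median-of-ratios scaling 1 core gene (Sdha) and 0 others were lower without overlap, beside 8.99% of all tested genes. With quantile normalisation 0 core genes and 2 others (Atp5l and Cox6a2) were lower without overlap, beside 11% of all tested genes. By the median over a gene's protein-coding transcripts (GENCODE M21), core genes were also longer, with a median of 977 bases against 600.5 bases for the others. That measure need not be the length of the transcript expressed, so genes can fall in a wrong class. Ndufs1, the largest iron-sulfur subunit, stood at 651 bases and Uqcrc1 at 533 bases, while Ndufb2 stood at 2413 bases. Among subunit genes over 1000 bases 10 of 18 were lower without overlap (55.6%), among those of over 700 and up to 1000 bases 3 of 22 (13.6%), and among those of up to 700 bases 7 of 47 (14.9%); the shares of all tested genes in these classes were 21.3%, 17.4% and 13.4%. Length and role cannot be told apart in this set.

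Many subunit genes have processed copies in the genome, and reads can be split between a gene and its copy. In GENCODE M21 transcripts, 24 members share at least 150 bases at 97% identity or more with another gene, and for 8 of them the copies held over 10% of the member's own TPM. These values are uncertain for each gene alone. Atp5l and its copy Gm10221 together had 2315, 2177 and 2082 TPM in the radiotherapy libraries, against 3011, 3658 and 4068 TPM in the control libraries, so the sum was lower without overlap like Atp5l. Cox7a2l with Gm6969 had 169, 189 and 306 TPM after radiotherapy, against 355, 332 and 436 TPM in controls, again without overlap.

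For other genes the copy altered the picture. Atp5g2 with Gm10175 had 585, 454 and 755 TPM in the radiotherapy libraries, against 1003, 956 and 1058 TPM in the control libraries, nearly all of it from the copy, and this sum was lower without overlap where Atp5g2 alone overlapped. Atp5g1 with Gm10039 had 1665, 1359.8 and 999 TPM after radiotherapy, against 1560.0, 1904 and 1736 TPM in controls, and Ndufb4 with Ndufb4c had 663, 751 and 451 TPM in the radiotherapy libraries, against 626, 688 and 904 TPM in the control libraries, and both sums overlapped where Atp5g1 and Ndufb4 alone did not. With both copies counted, Atp5g1 and Gm10039 made up 55.6%, 56.1% and 43.9% of the c ring sum in the radiotherapy libraries, against 48.5%, 53.3% and 50.0% in the control libraries, and so overlapped. Atp5g3 then made up 24.8%, 25.2% and 22.9% in the radiotherapy libraries, against 20.4%, 20.0% and 19.5% in the control libraries, still without overlap. Cox7c had 908, 918 and 698 TPM after radiotherapy, against 899, 923 and 1239 TPM in controls, and its copy Gm12338 had 2458, 2564 and 1879.7 TPM after radiotherapy, against 1242, 1825 and 1872 TPM in controls. Each radiotherapy value of Gm12338 lay above every control value. The sum of Cox7c and Gm12338 overlapped, as did those of Ndufa12 and Ndufs5 with their copies.

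**Figure D5:**
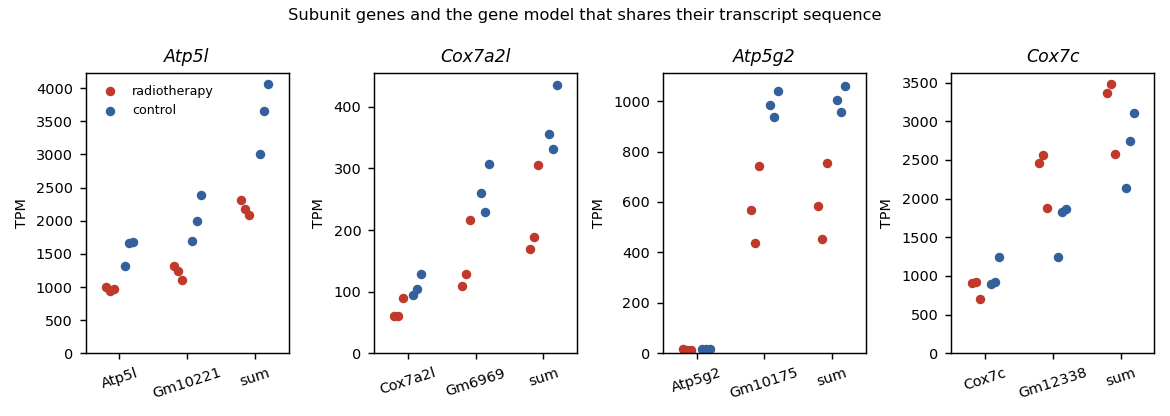
TPM of 4 subunit genes, of the gene model that shares their transcript sequence, and of their sum, in each library (radiotherapy in red, left of control in blue). Atp5l and Cox7a2l are lower without overlap alone and summed, Atp5g2 only through Gm10175, and Gm12338 lies higher in radiotherapy while its sum with Cox7c overlaps.

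The genes that work with these subunits were counted from lists, and 0 of their members passed an adjusted p of 0.05 in limma. Of the 13 subunits in mitochondrial DNA, 12 had log2 changes above 0, whereas 78.5% of all tested genes lay below 0. The exception was mt-Co3, at 0.17 to 0.21 TPM in every library but control library 3, where it had 269 TPM. The median over the 13 was 0.34 as deposited, 0.82 with median-of-ratios scaling and 0.26 with quantile normalisation. Of these mt-Nd3 had 3134, 3123 and 2334 TPM in the radiotherapy libraries, against 1523, 2184 and 1719 TPM in the control libraries, without overlap on the higher side (log2 change 0.67, limma adjusted p = 0.329). The groups of the other mitochondrial subunits overlapped. The mitochondrial subunits summed to 144600, 147000 and 83220 TPM in radiotherapy libraries and 115900, 68380 and 128500 TPM in control libraries, so they too were low in radiotherapy library 3, though not below control library 2.

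Assembly factors build the complexes without being part of them. Those of complex I had a median log2 change of -0.47, with 7 of 15 lower without overlap, those of complex II -0.46 (2 of 4), those of complex III -0.053 (0 of 6), those of complex IV -0.39 (7 of 18 tested) and those of complex V -0.76 (3 of 3). Over all tested genes 19.3% were lower without overlap and the median log2 change was -0.36. With median-of-ratios scaling these medians were -0.026, -0.006, 0.39, 0.073 and -0.33, so the sign turned for complexes III and IV. Tmem70, which assembles the c ring of ATP synthase, had 15.2, 13.6 and 13.3 TPM after radiotherapy, against 26.1, 27.9 and 25.4 TPM in controls. Its log2 change was -0.87 (SE 0.23, limma adjusted p = 0.276). Cox11, which delivers copper to complex IV, had 8.67, 9.24 and 9.72 TPM in the radiotherapy libraries, against 17.7, 19.2 and 14.9 TPM in the control libraries, and Timmdc1, an assembly factor of complex I, had 14.6, 10.8 and 8.10 TPM after radiotherapy, against 20.6, 19.5 and 20.5 TPM in controls. The groups did not overlap in any of these 3 genes.

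Electron carriers around the chain had a median of -0.38 as deposited and 0.069 with median-of-ratios scaling, with 5 of 16 lower without overlap as deposited (19.3% of all tested genes). Etfa, a subunit of the flavoprotein that takes electrons from fatty acid oxidation, had 49.9, 45.9 and 73.6 TPM in the radiotherapy libraries, against 145, 117 and 152 TPM in the control libraries. Etfdh, which passes those electrons to ubiquinone, had 16.6, 18.9 and 20.9 TPM after radiotherapy, against 41.5, 30.0 and 47.1 TPM in controls. Both were lower in every radiotherapy library, with log2 changes of -1.29 (limma adjusted p = 0.251) and -1.01 (limma adjusted p = 0.283). Coq9, needed to make ubiquinone, had 140.4, 136 and 110.3 TPM in the radiotherapy libraries, against 285, 183 and 247 TPM in the control libraries and did not overlap either.

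Among 10 tested regulators of respiratory gene transcription the median was -0.64 (-0.25 with median-of-ratios scaling), and 2 were lower without overlap, beside 19.3% of all tested genes. Tfam, which packages and transcribes mitochondrial DNA, had 8.80, 8.98 and 8.40 TPM after radiotherapy, against 16.6, 11.6 and 15.6 TPM in controls. Tfb2m, a mitochondrial transcription factor, had 9.34, 9.27 and 17.9 TPM in the radiotherapy libraries, against 23.1, 24.1 and 22.6 TPM in the control libraries. Nrf1, whose motif is described above, had 3.79, 2.76 and 9.74 TPM after radiotherapy, against 13.4, 12.8 and 8.97 TPM in controls, and overlapped through radiotherapy library 3. Ppargc1a, the coactivator PGC-1alpha, had 0.890, 1.10 and 0.790 TPM in the radiotherapy libraries, against 3.81, 1.10 and 5.68 TPM in the control libraries, and its groups met at 1.10 TPM. The log2 changes of these 4 regulators ran from -0.67 to -1.12, and the limma adjusted p values from 0.306 to 0.336.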

How the data were processed

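The values are TPM that the authors deposited, scaled by them for transcript length and library size. Per the submitters' processing notes, HISAT2, StringTie and RSEM were used with the build mm9; versions, roles and the annotation release are not given in the sources used here. Per the labels' protocols, a TruSeq kit was used on total RNA. Without read counts, depth is not known and no detection limit was computed.

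Genes averaging 1 TPM or more (11938 of 55995) were tested two-sided on log2(TPM + 1) with limma 3.58.1 in R 4.3.3 (empirical Bayes with a trend), with Benjamini-Hochberg adjustment over all of them and a threshold of 0.05. The members and lists were chosen with earlier results of these data known. By rule, the text names the highest and lowest genes and the 3 smallest p of each complex, core subunits, isoform families, genes without overlap, and up to 3 genes a pathway list with Ppargc1a. Ndufa5, Ndufa13, Atp5k, Cox6c, Cox7c and the overlapping small subunits of complex III were chosen after their values were seen; 1 gene named under that rule is left out of the text and the heat map. Copies were found with BLAST+ 2.17.0+ in GENCODE M21 transcripts, and a gene's length is the median of its protein-coding transcripts. Promoters are from RefSeq (GRCm38.p6). Alternatives were pseudocounts, filters, scalings, no trend, the replicate block and leaving out each library. Figures were drawn with matplotlib 3.10.9.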

Additional observations from a re-analysis of the deposited data

How the results depend on the processing

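No subunit gene passed an adjusted p of 0.05 in limma under any alternative that kept all 6 libraries, and 65 subunit genes had their lowest value in radiotherapy library 3, between 60 and 80 under the scalings; the counts for this library under each setting were added after seeing the data. Over all tested genes the 5 higher and 2 lower calls moved with the setting. A pseudocount of 0.1 gave 5 lower, a mean of at least 5 TPM gave 1 lower, no filter gave 0 higher and 0 lower, and median-of-ratios scaling and quantile normalisation each gave 3 higher and 1 lower. Leaving out each library in turn gave 0 to 236 higher and 0 to 3298 lower calls over all 11938 tested genes. Of the 87 subunit genes, 0 to 4 were called lower. Without overlap on the higher side were 1 to 18 subunit genes, beside 2.33% to 6.17% of all tested genes. The complex II median ran from -0.52 to -0.24. Each of the highest values came without radiotherapy library 3. As deposited, 20 of the 87 subunit genes were lower and 1 higher without overlap. With median-of-ratios scaling 1 was lower and 2 higher, beside 8.99% and 8.07% of all tested genes. With quantile normalisation 2 were lower and 2 higher, beside 11% and 7.85% of all tested genes. Under both scalings the subunit shares lay below those of all tested genes, and the cause was not tested. Medians by complex with median-of-ratios scaling were 0.34 for I, 0.062 for II, 0.30 for III, 0.18 for IV and 0.37 for V, and with quantile normalisation 0.14 for I and -0.086 for II. Among the named genes, none of them called, the log2 change turned positive with median-of-ratios scaling for Atp5b 0.37, Atp5c1 0.22, Atp5d 0.20, Atp5g2 0.24, Atp5g3 0.33, Atp5pb 0.025, Cox4i1 0.20, Cox5b 0.43, Cox6a2 0.040, Cox6b1 0.061, Cox7a2 0.11, Cox7b 0.080, Cox8a 0.19, Cox8b 0.18, Cyc1 0.44, Ndufa4 0.24, Ndufa7 0.019, Ndufc2 0.16, Ndufs3 0.0086, Ndufs6b 0.15, Ndufs7 0.35, Sdhb 0.25, Uqcr10 0.077, Uqcrc1 0.30. With quantile normalisation it turned positive for Atp5g2 0.20, Atp5g3 0.045, Cox5b 0.12, Cox8a 0.10, Cyc1 0.21, Ndufc2 0.070, Ndufs6b 0.14, Ndufs7 0.10, Sdhb 0.039, Uqcrc1 0.047, and without mt- genes for Cyc1 0.0026. Leaving out 1 library turned the sign at some setting for the following genes, given as lowest to highest log2 change: Atp5b -0.23 to 0.11, Atp5e -0.12 to 0.21, Cox4i2 -0.12 to 0.20, Cox5b -0.18 to 0.14, Cox6a1 -0.23 to 0.25, Cyc1 -0.25 to 0.39, Ndufs1 -0.19 to 0.35, Ndufs7 -0.31 to 0.15, Ndufs8 -0.034 to 0.29, Ndufv2 -0.10 to 0.28, Sdhc -0.14 to 0.24, Uqcrc1 -0.30 to 0.031. Same-numbered libraries had correlations of deviations of -0.045, -0.11 and -0.20, so no shared deviation was seen. With deviations taken within groups of 3 libraries, these values cannot exclude that the replicate numbers pair the samples. With the replicate block limma called 4 genes higher and 0 lower over all genes and no subunit gene. Without read counts the depth is unknown, and precision rests on 3 libraries a group.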
